A study of Homo sapiens with 6 samples.

Results

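The 48 genes described here act at the end of the cell cycle, from the assembly of the mitotic spindle to the final severing of the daughter cells. They were listed by symbol as mitotic kinases with their partners, mitotic kinesins, spindle assembly factors, and genes of cytokinesis and abscission. The listing rule holds symbols and roles and no expression value, but the members were chosen with earlier results of these data known. All 48 symbols had a row among the 59251 rows of the deposited count table. RNA was sequenced from HCT116 cells, an established human colorectal carcinoma line grown in McCoy's 5A medium with serum. The group WT held 3 libraries of unedited cells. The group MUT held 3 libraries of cells in which CRISPR/Cas9 editing had made both copies of eIF6 carry N106S, a substitution in a factor that binds the 60S ribosomal subunit and blocks its joining to the 40S subunit. The study's title sets this mutation beside mitotic exit, so the comparison of MUT with WT asks whether the transcripts of the division machinery differed. No drug or synchronisation is given in the labels, and cells were taken before confluence. The labels speak of mutant clones but give neither their number in these libraries nor whether each replicate was a culture of its own. The spread behind every p-value is that between these 6 libraries and may be technical.

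Entry into mitosis is set off by CDK1 with cyclin B. Polo-like and Aurora kinases then control the centrosomes, the spindle and the attachment of chromosomes. Kinesins are motors that slide, shorten or walk along microtubules, and after anaphase several of them bundle the overlapping microtubules midway between the chromosome masses. There the small GTPase RhoA is activated and builds a contractile ring of actin, myosin II and septins. The ESCRT-III filaments finally cut the bridge between the daughter cells. Many of these genes are transcribed mainly in G2 and M phase, through CCAAT boxes bound by NF-Y and a cell cycle genes homology region (CHR) bound by complexes that contain MuvB. Others, such as RhoA, the septins and the ESCRT genes, also serve cells between divisions. From this textbook knowledge 31 of the 48 were classed as periodic and 17 as constitutive.

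That division could be seen in the promoter letters. The RefSeq promoter table (GRCh38.p14, 250 bases before to 50 after each gene's start) held 43 of the 48 genes, and the CHR letters TTTGAA or TTTAAA were searched on both strands. They were present in 22 of 27 periodic promoters (81.5%), in 1 of 16 constitutive ones (6.25%, CKAP5) and in 1663 of 11021 promoters of tested genes (15.1%). Among all 27305 promoters of the table the share was 24.3%. In 21 of the 22 periodic promoters the match lay between 60 bases before and 40 bases after the start. CCAAT, on either strand, was present in 22 of 27 periodic promoters (81.5%), 9 of 16 constitutive ones (56.2%) and 36.5% of the promoters of tested genes. Both kinds of letters stood together in 19 of 27 periodic promoters (70.4%), against 6.27% of the promoters of tested genes. A match is a description of these windows and not a mapped binding site. The following sequences run 5′ to 3′ on the gene's strand, with the searched letters in capitals on whichever strand they matched. The first 4 show a CHR near the start of a kinase, a spindle factor, a microtubule bundler and a passenger subunit. KIF4A shows a CCAAT box, read on the other strand, upstream of a CHR. NEK2 has 2 CCAAT boxes and no CHR letters in its window. CHMP2A, a constitutive gene, has neither in the stretch shown.
PLK1, chr16:23678848-23678877, plus strand: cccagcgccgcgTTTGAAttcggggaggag
HMMR, chr5:163460592-163460621, plus strand: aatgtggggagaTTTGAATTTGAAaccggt
PRC1, chr15:90994538-90994567, minus strand: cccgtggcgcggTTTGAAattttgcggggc
CDCA8, chr1:37692481-37692510, plus strand: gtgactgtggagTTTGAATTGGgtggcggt
KIF4A, chrX:70290029-70290084, plus strand: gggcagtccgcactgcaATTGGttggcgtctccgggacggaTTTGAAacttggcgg
NEK2, chr1:211675641-211675696, minus strand: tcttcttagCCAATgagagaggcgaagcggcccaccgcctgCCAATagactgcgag
CHMP2A, chr19:58555125-58555180, minus strand: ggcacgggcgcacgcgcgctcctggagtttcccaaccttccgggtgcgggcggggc
In the HMMR promoter 2 copies of TTTGAA stood side by side, and in CDCA8 the CHR letters ran into a CCAAT read on the other strand. The 5 periodic promoters without CHR letters belonged to AURKB, NEK2, KIF22, CKAP2 and TACC3.

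**Figure D1:**
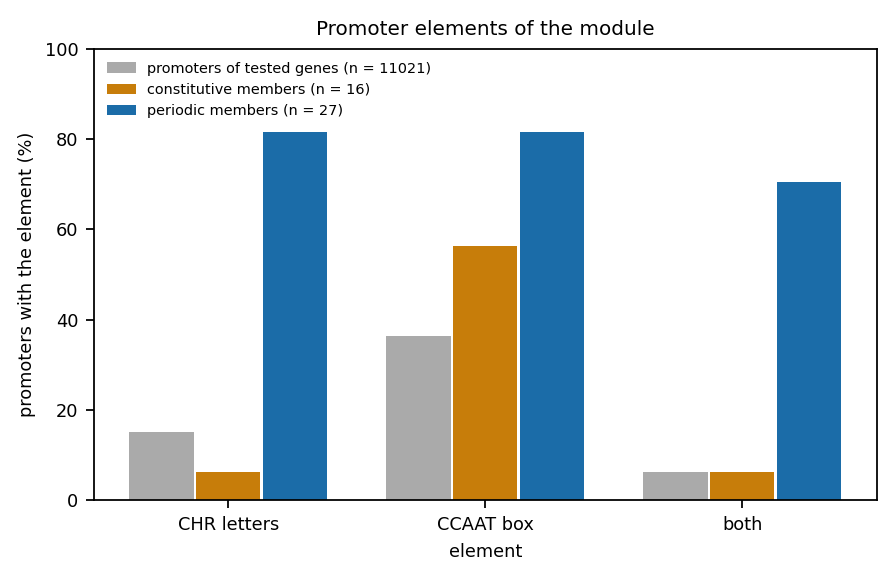
Share of promoters (in percent, y axis) holding the CHR letters, a CCAAT box or both, for 27 periodic members, 16 constitutive members and 11021 tested genes. The periodic bars stand at 81.5%, 81.5% and 70.4%, above both other sets for each element.

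The libraries held 53986494 to 87656970 counts. The 7SL RNA took 43.3% to 64.4% of them, and 10252501 to 21984081 counts were left without 7SL, 7SK, RPPH1 and RMRP. Ribosomal RNA rows took 1.16% of WT replicate 1, 3.91% of MUT replicate 2 and at most 0.234% of the others. Of 10 epithelial markers 9 passed the filter on low counts, all but VIL1. The 10 had a summed level of 446 to 482 CPM in WT and 468 to 520.5 CPM in MUT. KRT8, KRT18 and KRT19 made up most of that sum. CLDN4, CLDN7, CDH1 and EPCAM were lower in every MUT library than in any WT library (beside 13.4% of tested genes). CDH1 rested on 14 to 54 counts. CLDN4 and CLDN7 were called, beside 1.91% of tested genes. KRT8 was higher in every MUT library (beside 12.8% of tested genes). The part of these marker differences in the members' levels was not tested. None of 6 immune markers passed, with PTPRC and CD3E at 0, and none of 3 endothelial ones. Of 4 stromal markers 3 passed (COL1A1, COL3A1 and PDGFRB). The stromal markers summed to 0.594 to 3.03 CPM in WT and 1.53 to 2.60 CPM in MUT. CPM values are counts scaled to a common library size with edgeR's TMM factors, and a log2 fold change is MUT over WT. EIF6 itself, the edited gene, had 43.3, 47.9 and 47.4 CPM in WT and 36.7, 30.7 and 35.7 CPM in MUT (log2 fold change -0.43, SE 0.12, adjusted p = 0.110 by edgeR's quasi-likelihood test). The EIF6 level does not show the base change, so it checks no label.

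No member was called at an adjusted p below 0.05. All 48 passed the filter on low counts, and 14808 genes were tested. Among all tested genes 283 were called (1.91%), 146 higher in MUT (0.986%) and 137 lower (0.925%), so few calls would fall in a list of this length at that rate. With WT replicates 1, 2 and 3 left out in turn 0.196%, 0.177% and 0.392% of genes were called, with MUT replicates 1, 2 and 3 left out 0.262%, 2.9% and 0.26%, and with the replicate number as a block 2.0%, and in none of these 7 fits was a member called. With no filter on low counts, where 4.07% of genes were called, SEPTIN7 was called, and CHMP2A was called by 4 other settings given below. At an unadjusted p below 0.05 there were 5 members (10.4%), against 19.6% of tested genes. Of the 8351 tested genes within the members' range of average level 25.1% had such a p. The members' log2 fold changes ran from -0.52 to 0.72, with 23 above 0 and 25 below, and their median was -0.01, as was that of all tested genes. In 12 members (25%) the 3 MUT levels did not overlap the 3 WT levels, against 26.1% of tested genes and 30.9% of those 8351. MUT was the higher group in 6 of them (PLK1, KIF22, HMMR, TACC3, SEPTIN7 and PDCD6IP, beside 12.8% of tested genes) and the lower in 6 (AURKB, NEK2, RHOA, CHMP4B, CHMP2A and VPS4A, beside 13.4%). Relative to the median of all genes, the sign turned for RHOA (0.10) and AURKB (0.04) on the log2(TPM + 1) scale, and for RHOA (0.06), AURKB (0.05) and PDCD6IP (-0.02) on the log2(FPKM + 1) scale.

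The intervals show how large a difference could have been missed. For 46 of 48 members (95.8%) the 95% interval of the fold change lay within 2-fold in either direction, the exceptions being HMMR and SEPTIN7. The same held for 68.0% of all tested genes and for 90.9% of the 8351 tested genes within the members' range of average level. Within 1.5-fold lay 32 members (66.7%), against 51.8% of those 8351 genes. These intervals are relative to the TMM scale and cannot show a change common to all RNA. In bulk RNA, fewer cells in mitosis and less RNA per mitotic cell cannot be told apart either.

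**Figure D2:**
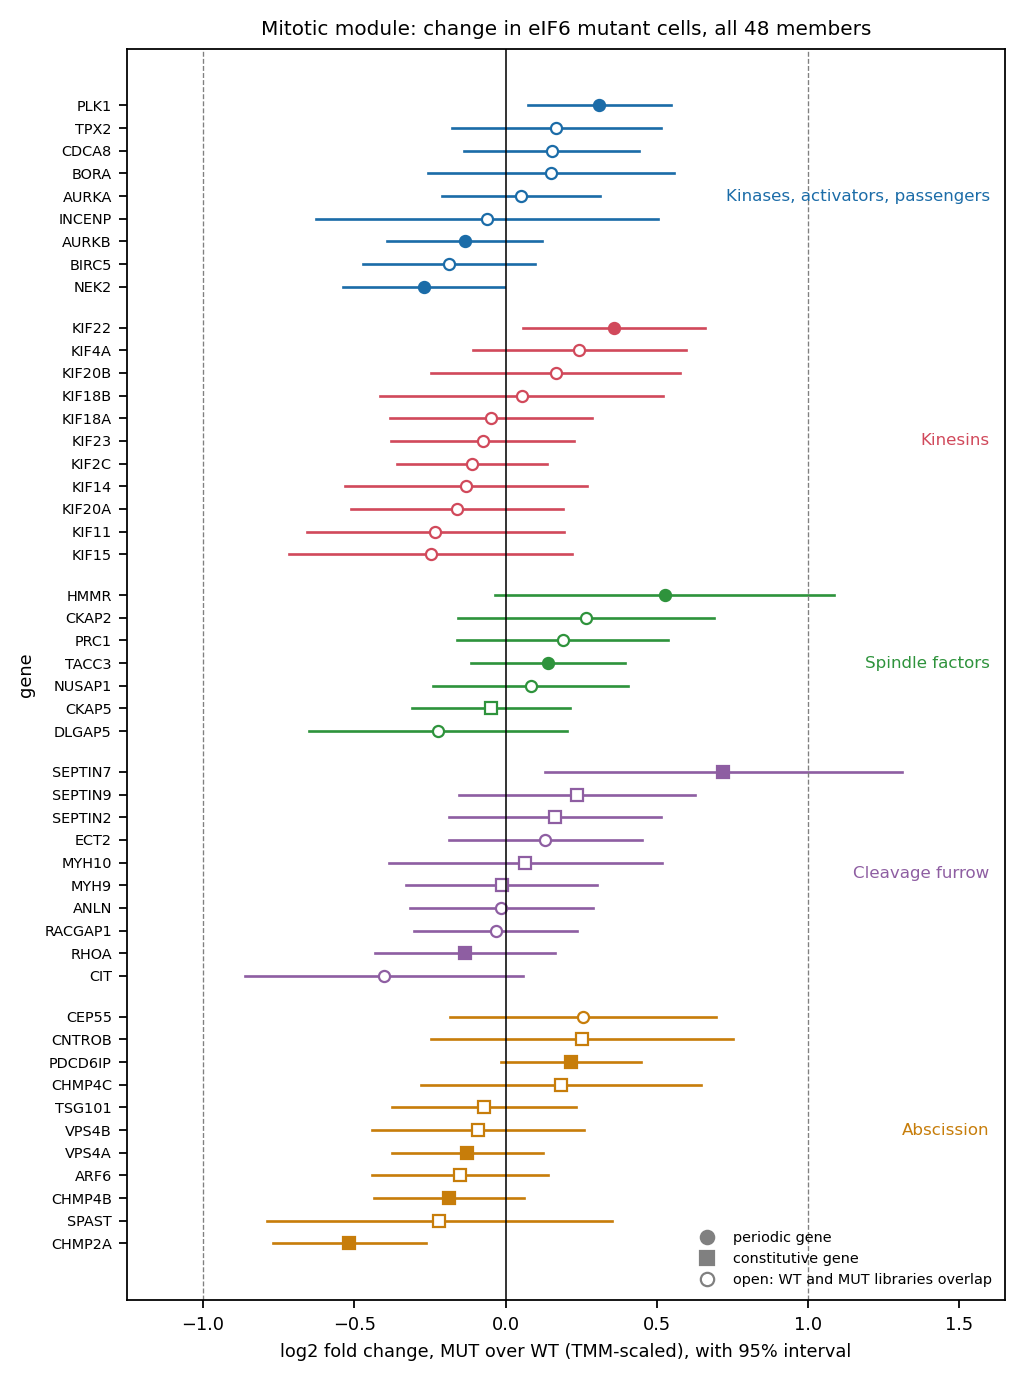
Log2 fold change of MUT over WT for the 48 members by role group, with 95% intervals from edgeR's quasi-likelihood fit of 3 against 3 libraries; circles are periodic genes, squares constitutive ones, and open symbols mark groups that overlap. The values run from -0.52 for CHMP2A to 0.72 for SEPTIN7, and no member was called.

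Among the 9 mitotic kinases and their partners, the levels lay close to WT, with a median log2 fold change of 0.05 and a range from -0.27 to 0.31. PLK1, the polo-like kinase that drives centrosome maturation and recruits the RhoA activator at anaphase, had 13.1, 12.5 and 13.0 CPM in WT and 16.2, 16.0 and 15.6 CPM in MUT. Every MUT library lay above every WT library, and the spread within each group was small. The log2 fold change was 0.31 (SE 0.10, 95% interval 0.07 to 0.55, adjusted p = 0.151), and it stayed between 0.29 and 0.34 when any 1 library was left out. NEK2, a kinase that separates the centrosomes, went the other way. It had 3.97, 3.67 and 3.42 CPM in WT and 3.12, 3.11 and 2.95 CPM in MUT, so the groups did not overlap (log2 fold change -0.27, SE 0.12, adjusted p = 0.245).

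The Aurora kinases share a catalytic domain and differ in place, with AURKA at the spindle poles and AURKB at centromeres and the midzone. AURKA had 10.5, 10.1 and 8.96 CPM in WT and 9.84, 10.9 and 9.86 CPM in MUT, and the groups overlapped (log2 fold change 0.05, SE 0.12). AURKB had 17.2, 18.2 and 17.0 CPM in WT and 16.3, 14.6 and 16.9 CPM in MUT. The highest MUT library lay just under the lowest WT library, and the log2 fold change was -0.14 (SE 0.11, adjusted p = 0.575), or -0.06 without MUT replicate 2. BIRC5, the survivin subunit of the chromosomal passenger complex that carries AURKB, had the highest mean level per length of these 9 genes (AURKB was above it in 3 of the 6 libraries), with 4.06 ± 1.44 TPM (per length) in WT and 5.64 ± 2.56 in MUT (mean ± SD, n = 3). On the CPM scale BIRC5 had 39.0, 47.4 and 46.5 in WT and 37.6, 40.5 and 38.5 in MUT. The groups overlapped through WT replicate 1 (log2 fold change -0.19, SE 0.13, adjusted p = 0.463). TPM was higher in MUT and CPM lower. The total behind TPM includes 7SL, whose share was smallest in MUT replicate 2. The part of the 7SL share in these opposite directions was not tested. The other passenger subunits overlapped between the groups, with log2 fold changes of -0.06 for INCENP, the scaffold, and 0.15 for CDCA8, which targets the complex to centromeres. The Aurora A activators BORA and TPX2 had 0.15 and 0.17, and both were highest in MUT replicate 2.

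Across the 11 kinesins the log2 fold changes ran from -0.25 to 0.36, around a median of -0.08. In 10 of them the groups overlapped, and in 1 (9.09%, beside 26.1% of tested genes) they did not. This was KIF22, a motor on chromosome arms that pushes them toward the spindle equator and the most abundant kinesin per length. It had 9.79, 10.5 and 9.51 CPM in WT and 10.9, 14.5 and 12.8 CPM in MUT, all MUT libraries being higher (log2 fold change 0.36, SE 0.13, 95% interval 0.06 to 0.66, adjusted p = 0.182). KIF11, the Eg5 motor that pushes the spindle poles apart, had 2.65, 2.55 and 2.24 CPM in WT and 2.22, 2.51 and 1.59 CPM in MUT (log2 fold change -0.23, SE 0.19, and -0.07 without MUT replicate 3). KIF15 can back up KIF11, and its log2 fold change was -0.25 (SE 0.21). KIF4A, which caps the growth of midzone microtubules together with PRC1, had 2.07, 2.41 and 2.57 CPM in WT and 2.37, 2.94 and 3.02 CPM in MUT (log2 fold change 0.24, SE 0.16, adjusted p = 0.433).

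The kinesins of the midzone and midbody lay on both sides of WT. KIF23, the motor of the centralspindlin complex, had a log2 fold change of -0.08, and KIF20A, which brings the passenger complex to the midzone, had -0.16. KIF20B had 0.17 and KIF14, which recruits citron kinase, had -0.13. KIF18A and KIF18B, which limit microtubule length at kinetochores and at the cortex, had -0.05 and 0.05. KIF2C, a depolymerising kinesin at centromeres, had 5.63, 5.14 and 6.18 CPM in WT and 5.22, 5.20 and 5.25 CPM in MUT (log2 fold change -0.11, SE 0.11), and the MUT values lay inside the WT range.

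The 7 spindle factors had the highest median of the role groups, 0.14, with 5 above 0 and 2 below. The library medians of these 7 genes had a within-group SD of 0.15 on the same log2 scale. HMMR, a spindle-pole protein that anchors TPX2, had 1.80, 2.15 and 1.06 CPM in WT and 2.22, 2.88 and 2.20 CPM in MUT. The groups did not overlap, but WT replicate 2 came within 0.1 CPM of the lower MUT libraries and WT replicate 3 rested on 46 counts. The log2 fold change was 0.53 (SE 0.25, 95% interval -0.03 to 1.09, adjusted p = 0.284), and it was 0.31 to 0.78 with any 1 library left out. TACC3, which with clathrin and CKAP5 crosslinks kinetochore fibres, had 5.81, 5.92 and 4.93 CPM in WT and 6.06, 6.06 and 6.28 CPM in MUT (log2 fold change 0.14, SE 0.11, adjusted p = 0.549). Its partner CKAP5, a microtubule polymerase and the only constitutive gene of these 7, had -0.05 (SE 0.12).

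CKAP2, a microtubule nucleator and stabiliser, had 3.71, 3.66 and 3.40 CPM in WT and 3.50, 5.71 and 3.72 CPM in MUT. Its log2 fold change of 0.27 was 0.02 without MUT replicate 2, the one high library. NUSAP1, which bundles microtubules near chromosomes and was the most abundant spindle factor per length, had a log2 fold change of 0.08 (SE 0.14). DLGAP5 had -0.22 and PRC1, the bundler that marks the midzone, had 0.19 (SE 0.15). All 4 of these genes were highest in MUT replicate 2.

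**Figure D3:**
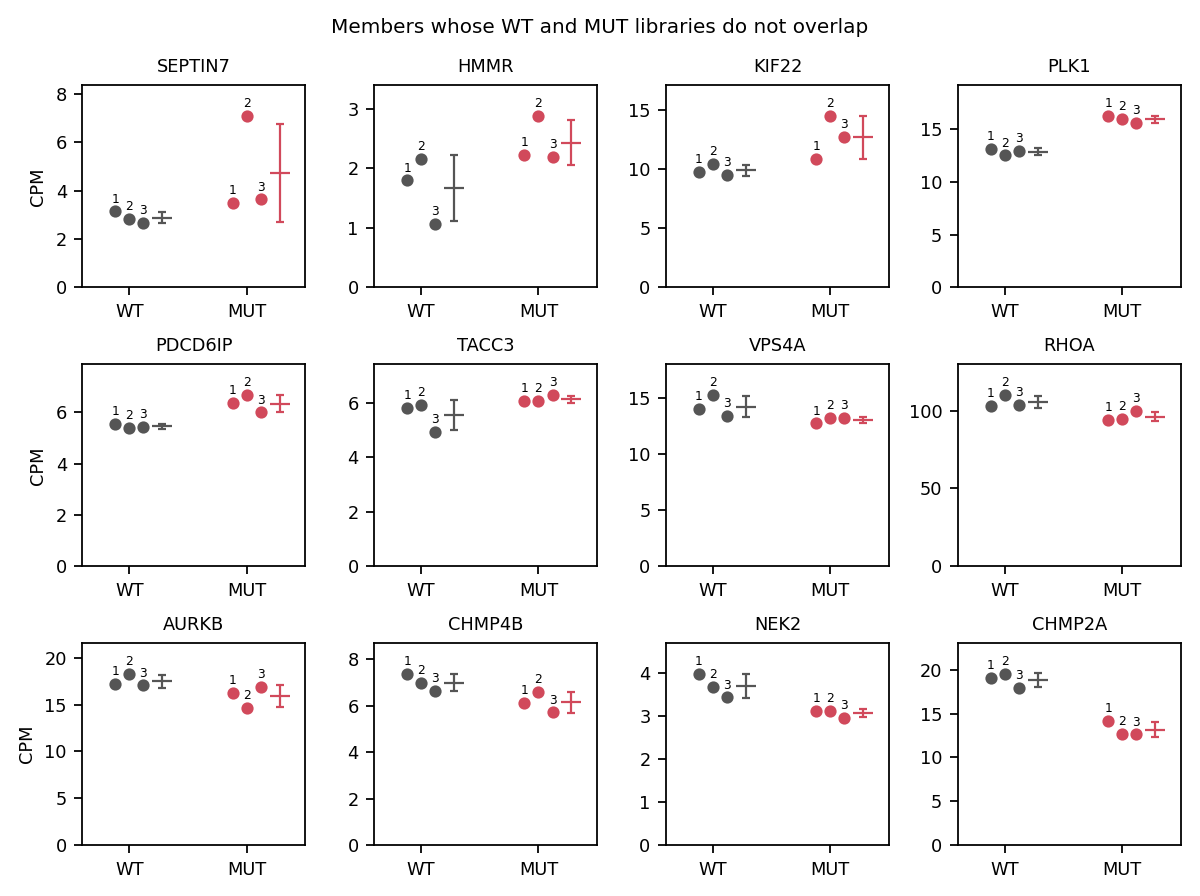
CPM of the 12 members whose MUT and WT levels did not overlap, with 1 point per library, numbered by replicate, and the mean ± SD of each group beside the points. In PLK1 and CHMP2A the libraries of a group lie close together, and SEPTIN7 is set apart mainly by MUT replicate 2.

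The 10 furrow genes had a median log2 fold change of 0.03. RHOA, the GTPase that commands the ring, was the most abundant member per length, with 13.9 ± 4.62 TPM in WT and 19.9 ± 7.98 TPM in MUT. In CPM it had 103, 109.9 and 104 in WT and 94.0, 94.7 and 99.5 in MUT, every MUT library being lower (log2 fold change -0.13, SE 0.13, adjusted p = 0.640). The regulators of RhoA overlapped between the groups: its exchange factor ECT2 had a log2 fold change of 0.13 and RACGAP1, the centralspindlin subunit that binds ECT2, had -0.03. ANLN, the scaffold that ties RhoA to actin, myosin and septins, had -0.01. CIT, citron kinase of the midbody ring, had 2.45, 1.78 and 2.45 CPM in WT and 1.92, 1.34 and 1.79 CPM in MUT (log2 fold change -0.40, SE 0.20, 95% interval -0.86 to 0.06, adjusted p = 0.320), and WT replicate 2 lay among the MUT values. The myosin II heavy chains MYH9 and MYH10 had -0.01 and 0.07.

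The septins are filament proteins of the ring and the midbody. SEPTIN7, the subunit that most septin complexes need, had the largest log2 fold change of the 48 members, 0.72 (SE 0.26, 95% interval 0.13 to 1.31, adjusted p = 0.173). Its levels were 3.14, 2.83 and 2.68 CPM in WT and 3.49, 7.09 and 3.64 CPM in MUT. Replicate 2 of MUT stood well above the rest, and without it the log2 fold change was 0.32 (adjusted p = 0.281). The table also holds 15 pseudogene copies named after SEPTIN7. Their counts summed to 234, 256 and 158 in WT and 272, 224 and 142 in MUT, beside 217, 212 and 116 in WT and 262, 690 and 217 in MUT for the gene itself. Only in MUT replicate 2 and MUT replicate 3 did the gene hold more counts than its copies. Gene and copies together had 6.53, 6.25 and 6.34 CPM in WT and 7.11, 9.39 and 6.02 CPM in MUT, and the groups then overlapped. With the copies added, MUT replicate 2 was still the highest library. Whether reads shared with the copies were divided differently between libraries was not tested, so the SEPTIN7 value is uncertain. SEPTIN2 had 13.5, 12.3 and 11.8 CPM in WT and 11.6, 17.1 and 13.4 CPM in MUT (log2 fold change 0.16), again highest in MUT replicate 2 and 0.02 without it. SEPTIN9, a subunit of longer septin complexes, had 17.9, 13.7 and 17.4 CPM in WT and 21.4, 15 and 21.3 CPM in MUT (log2 fold change 0.24, SE 0.17).

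The 11 abscission genes had the lowest median of the role groups, -0.09, and in 4 of them (36.4%, beside 26.1% of tested genes) the groups did not overlap. The kinesin median was close, at -0.08. Library medians of the abscission genes had a within-group SD of 0.08. CHMP2A, an ESCRT-III subunit that caps the CHMP4 filament and recruits VPS4, came closest to the threshold of all 48 members. Its gene lies at chr19:58551566-58555105 (GRCh38.p14). It had 19.1, 19.5 and 17.96 CPM in WT and 14.2, 12.7 and 12.6 CPM in MUT, or 18.8 ± 0.80 against 13.2 ± 0.87 (mean ± SD, n = 3). The gap between the groups was wider than the spread within either. The log2 fold change was -0.52 (SE 0.11, 95% interval -0.77 to -0.26), 0.699 times the WT level, with an adjusted p of 0.0554. With any 1 library left out it was -0.57 to -0.46 with adjusted p from 0.0625 to 0.196. It was called by DESeq2 (log2 fold change -0.50, adjusted p = 0.0126, with 5.13% of genes called), by limma-voom (-0.52, adjusted p = 0.0460, 1.77%), by edgeR's robust fit (-0.52, adjusted p = 0.0307, 3.73%) and with a filter of 1 CPM in 3 libraries (-0.50, adjusted p = 0.0376, 4.66%). These were 4 of the 20 alternative settings. By library size alone in edgeR its log2 fold change was 0.01 (adjusted p = 0.987). By limma it was 0.07 on log2(TPM + 1), 0.09 on log2(TPM + 0.1) and -0.01 on log2(FPKM + 1). The medians of all genes were then 0.54, 0.36, 0.49 and 0.33, so the lower level is relative to other genes.

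The log2 fold changes of the other 10 abscission genes were smaller in size than that of CHMP2A and lay in both directions. CHMP4B, the main filament subunit, had 7.37, 7.0 and 6.64 CPM in WT and 6.13, 6.61 and 5.72 CPM in MUT. MUT was lower throughout, by a narrow margin (log2 fold change -0.19, SE 0.11, adjusted p = 0.390). CHMP4C, the subunit that holds abscission back under the Aurora B checkpoint, had 1.96, 2.30 and 1.57 CPM in WT and 2.05, 2.72 and 1.86 CPM in MUT (log2 fold change 0.18, SE 0.20). That value was 0.02 without MUT replicate 2 and 0.36 without WT replicate 2. VPS4A, an ATPase that remodels and takes the filaments apart, had 14.1, 15.3 and 13.4 CPM in WT and 12.8, 13.2 and 13.3 CPM in MUT (log2 fold change -0.13), and VPS4B had -0.09.

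PDCD6IP, or ALIX, an adaptor that brings ESCRT-III to the midbody, had 5.56, 5.38 and 5.44 CPM in WT and 6.36, 6.67 and 6.0 CPM in MUT. All MUT libraries were higher, and the WT libraries were nearly equal (log2 fold change 0.22, SE 0.10, 95% interval -0.01 to 0.45, adjusted p = 0.285). TSG101, the other adaptor, had -0.07, and CEP55, the midbody protein that binds both adaptors, had 0.26 (SE 0.19). The microtubule-severing SPAST had -0.22, the membrane-traffic GTPase ARF6 had -0.15 and CNTROB, a centriole protein, had 0.25, all 3 with overlapping groups.

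MUT replicate 2 recurred as the highest library. It was the highest of the 6 for 19 of 48 members (39.6%), against 20.9% of all tested genes. These were 15 of 31 periodic members and 4 of 17 constitutive ones. The median log2 level of the periodic members relative to the WT mean was 0.03, 0.04 and -0.06 in WT and -0.10, 0.15 and -0.04 in MUT. Thus 2 of the 3 MUT libraries lay below 0 and the remaining one was the highest of all. The constitutive members had medians of 0.03, -0.02 and -0.02 in WT and -0.10, -0.03 and -0.04 in MUT. That high library, MUT replicate 2, was also the one with the most ribosomal RNA and the smallest 7SL share, and the part of either in the members' levels was not tested. The median of the periodic members' log2 fold changes was 0.05 with all libraries, -0.02 without MUT replicate 2 and -0.01 without MUT replicate 3. That of the constitutive members was -0.05 with all libraries.

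**Figure D4:**
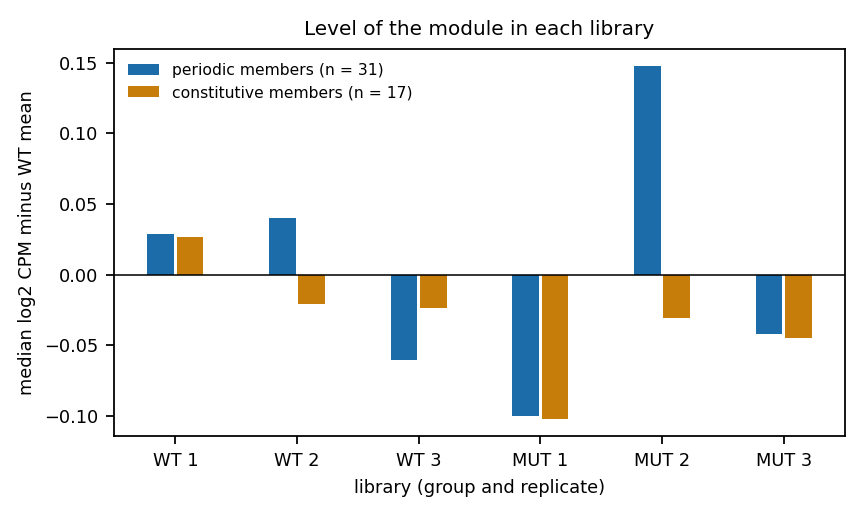
Median log2 CPM of the 31 periodic and 17 constitutive members in each library (bars), relative to each gene's mean over the 3 WT libraries. For the periodic members MUT replicate 2 is highest at 0.15 and MUT replicate 1 lowest at -0.10.

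Ratios between paralogues and partners within a library do not depend on library size. There were 10 pairs, compared as TPM ratios (geometric means) by exact two-sided permutation tests over 3 against 3 libraries, which cannot go below p = 0.1. No pair could therefore pass 0.05, and the values are a description. The order of the group means was the same in WT and MUT in each pair. VPS4A was 4.64 times VPS4B in WT and 4.51 times in MUT, and MYH9 was 4.23 and 4.19 times MYH10. Ratios with genes of low TPM are coarse, because the deposited values are rounded. MYH10 had 0.04 to 0.11 TPM, and on the FPKM scale MYH9 was 4.31 and 4.11 times MYH10. KIF11 stood at 1.11 and 1.13 times KIF15, KIF18A at 1.10 and 1.04 times KIF18B, and PRC1 at 3.40 and 3.19 times KIF4A. The ratio of AURKA to AURKB was 0.274 in WT and 0.302 in MUT (exact permutation p = 0.3). KIF20A was 4.18 times KIF20B in WT and 3.39 times in MUT, and CHMP4B was 4.27 times CHMP4C in WT and 3.27 times in MUT (log2 difference -0.38, exact permutation p = 0.2). SEPTIN2 was 3.35 times SEPTIN7 in WT and 2.14 times in MUT (log2 difference -0.65, exact permutation p = 0.1, the smallest possible), the only pair whose groups did not overlap. SEPTIN9 was 4.03 times SEPTIN7 in WT and 2.78 times in MUT, with overlapping groups. Both septin ratios rest on the uncertain SEPTIN7 value.

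**Figure D5:**
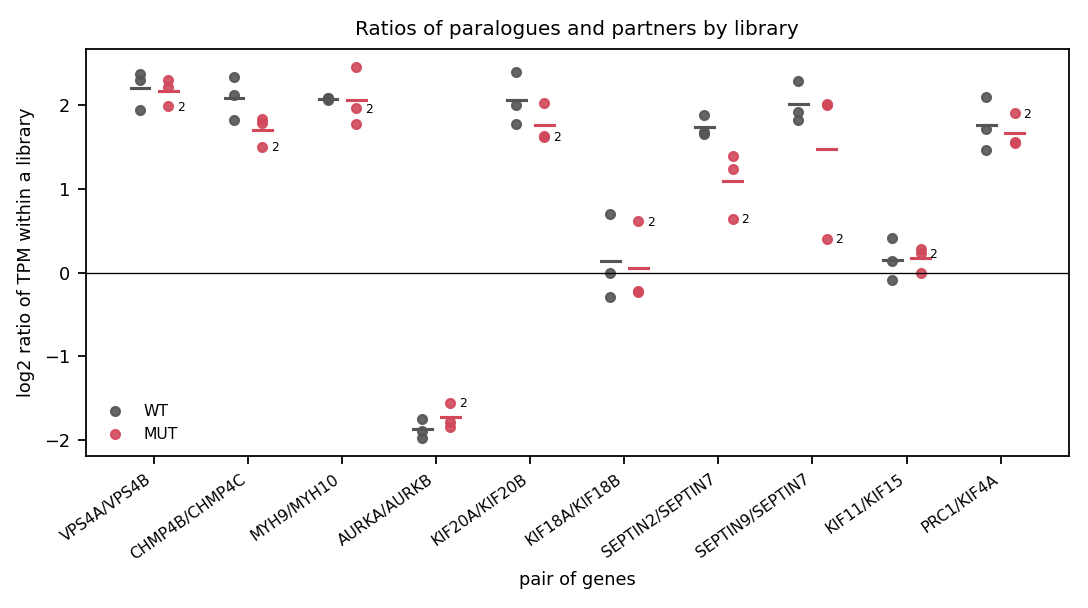
Log2 TPM ratio of the 10 pairs in each of the 6 libraries, with the group means as short lines and MUT replicate 2 marked by its number. WT and MUT points overlap in 9 pairs and lie apart in SEPTIN2/SEPTIN7.

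Of 89 further genes of the same pathways, in 4 lists, 2 were called, beside 1.91% of tested genes. Of 17 other mitotic kinases, phosphatases and their regulators none was called, with a median log2 fold change of -0.06, and the groups were apart in 3 (17.6%, beside 26.1% of tested genes). Of 25 other spindle genes HAUS4, a subunit of the augmin complex that nucleates microtubules from microtubules, fell. It had 7.49, 8.94 and 9.79 CPM in WT and 5.06, 5.12 and 4.39 CPM in MUT (log2 fold change -0.84, SE 0.13, adjusted p = 0.0205), and all MUT libraries were lower. The median of these 25 was -0.06, and the groups were apart in 7 (28%). The list of 20 other furrow genes and their regulators also held PLK2, a relative of PLK1 that acts in centriole duplication and stress responses. PLK2 is a kinase, so the absence of calls among the 17 genes of the kinase list depends on its placement here. PLK2 rose, with 7.20, 5.52 and 4.28 CPM in WT and 11.5, 12.9 and 12.4 CPM in MUT (log2 fold change 1.11, SE 0.18, adjusted p = 0.0222). The median of the furrow list was 0.10 and the groups were apart in 6 (30%). Of 27 other ESCRT genes none was called, the median was 0.09 and the groups were apart in 8 (29.6%). The last 3 shares are near that of all tested genes. With 1 library left out, HAUS4 kept a log2 fold change of -0.93 to -0.75 and PLK2 of 0.96 to 1.33, with adjusted p of 0.0144 to 0.110 and of 0.0136 to 0.118. HAUS4 was then called only without MUT replicate 2, and PLK2 only without WT replicate 1 or MUT replicate 2. Neither was called by library size alone or by limma on the TPM and FPKM scales, where the directions were as above.

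Some levels may hold reads of neighbouring genes. In GENCODE 29, 24 members share exon bases with another gene, and for 10 that gene had at least 1 CPM. The longest shared stretches among those 10 were 1245 of 5670 exon bases of VPS4A with COG8 and 1180 of 3189 of BORA with DIS3, both on the opposite strand. The sources used here do not give whether the counting used strand, so such reads cannot be assigned. PLK1, NEK2, KIF22, HMMR and CHMP2A shared no exon base with a gene measured at that level. Genes without a level in these data are not covered by that statement. With such genes PLK1 shared 553 of 4760 exon bases and KIF22 561 of 4312, on the opposite strand. PRC1 shared 3181 of 5525, NUSAP1 1787 of 2875 and VPS4A 1191 of 5670 with such genes on the same strand.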

How the data were processed

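RNA of 3 WT and 3 MUT HCT116 libraries was compared. The authors deposited 3 tables with 1 row per gene symbol: expected counts, FPKM and TPM. Listed in the submitters' processing notes, without their roles, are STAR 2.5.2b, RSEM 1.2.28, FastQC 0.12.1, DESeq2 1.42.0 and the build hg38 (GRCh38). The deposited expected counts were whole numbers, so rounding changed none (177 entries with a count of 0 have a positive FPKM, so the estimates may have been rounded before deposit). The authors' FPKM and TPM values contain the 7SL share in their totals and were used for ratios, levels per length and alternatives. Pooled over all genes with counts, replicates of a group differed by far more than counting noise (chi-square per degree of freedom of at least 23.2). This pooled value does not describe any single member.

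Genes were kept by edgeR's filterByExpr (minimum count 10, total 15), scaled with TMM and tested in R 4.3.3 with edgeR 4.0.16 (glmQLFit, glmQLFTest; no covariate). P-values were adjusted by Benjamini-Hochberg over all 14808 genes and called below 0.05. The standard error is the log2 fold change divided by the square root of F. Alternatives used DESeq2 1.42.0 and limma 3.58.1, including voom. The fit was tested on simulated data. Named genes were EIF6, the 3 smallest p and the highest TPM in each role group, the 3 largest and the 3 smallest fold changes, the genes of the 10 pairs and called genes of the wider lists; other members named were picked after their values were seen. The members and all lists were chosen with earlier results of these data known. Promoters and coordinates come from RefSeq (GRCh38.p14), exon overlaps from GENCODE 29. The series' ribosome profiling was not analysed here. Replicate numbers were not taken as pairs.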

Additional observations from a re-analysis of the deposited data

How the results depend on the processing

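No member was called in the fit described above or with any 1 library left out. The count of members called lower became 1 (CHMP2A) with DESeq2, limma-voom, the robust fit and the 1 CPM filter, and the count called higher became 1 with no filter on low counts (SEPTIN7, log2 fold change 0.73, adjusted p = 0.00142, beside 4.07% of genes called). The number of genes called, 283, became 108 by library size alone, 1195 with no filter, 462 with the 1 CPM filter, 552 with the robust fit, 760 with DESeq2, 0 with limma on log2(TPM + 1), 8 on log2(TPM + 0.1) and 7 on log2(FPKM + 1), and 27 to 442 with 1 library left out, the highest without MUT replicate 2. The TPM scales had 2853 genes tested. Replicate numbers were not shown to pair libraries: deviations of same-numbered libraries correlated at -0.291, -0.0414 and 0.219. With the replicate block 296 genes were called and no member.

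Library size alone and the TPM and FPKM scales moved the median of all genes to 0.54 (library size), 0.36 (TPM + 1), 0.49 (TPM + 0.1) and 0.33 (FPKM + 1). The medians of the members moved with it, in that order to 0.56, 0.39, 0.55 and 0.38 for all members, 0.59, 0.39, 0.62 and 0.39 for periodic ones and 0.52, 0.37, 0.50 and 0.36 for constitutive ones. Without WT replicate 1 and MUT replicate 2, the libraries richest in ribosomal RNA, the periodic median was -0.054. With 1 library left out the periodic median ran from -0.016 to 0.082 and the constitutive one from -0.063 to 0.030.

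Values that changed sign follow, given relative to the median of all genes where the scale moved it. RHOA was 0.10 on TPM + 1 and 0.059 on FPKM, AURKB 0.041 and 0.050, AURKA -0.0011 on TPM + 1, PDCD6IP -0.016 and KIF18B -0.0090 on FPKM. MYH9 was 0.0021 with DESeq2's size factors in edgeR, 0.028 by library size, 0.0064 with the 1 CPM filter, 0.0038 with DESeq2, 0.015 with voom and 0.032 without WT replicate 1 and MUT replicate 2. Without those 2 libraries NUSAP1 was -0.071, MYH10 -0.0098 and KIF20B -0.055. KIF18B kept its sign there and was larger, at 0.41. KIF18A was 0.014 by library size. Pair differences became 0.070 (VPS4A/VPS4B), 0.20 (MYH9/MYH10) and 0.12 (PRC1/KIF4A) on TPM + 0.1, and -0.036 (KIF11/KIF15) on FPKM. With 1 library left out the ranges were -0.050 to 0.19 for NUSAP1, -0.16 to 0.0069 for VPS4B, -0.10 to 0.13 for MYH9, -0.0035 to 0.12 for AURKA, -0.0048 to 0.30 for KIF20B, -0.19 to 0.058 for KIF18A and -0.089 to 0.24 for KIF18B. MYH10 kept its sign, at 0.0061 to 0.25. For pairs they were -0.17 to 0.049 (VPS4A/VPS4B), -0.21 to 0.13 (MYH9/MYH10), -0.37 to 0.20 (KIF18A/KIF18B), -0.10 to 0.15 (KIF11/KIF15) and -0.24 to 0.078 (PRC1/KIF4A). In the 250 bases before the start alone, CHR letters were in 70.4% of periodic, 6.25% of constitutive and 13.6% of tested promoters. The cause of these differences was not tested.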

Other observations

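Within the kinases, PLK1 was higher and NEK2 lower in every MUT library than in any WT library. Their ratio therefore had to separate the groups and adds nothing to the 2 levels. On the FPKM scale PLK1 was 3.26, 3.24 and 3.76 times NEK2 in WT and 5.03, 4.85 and 5.18 times in MUT. The ratio of PLK1 to AURKA was 1.27, 1.25 and 1.47 in WT and 1.62, 1.63 and 1.61 in MUT, and the 3 MUT values were nearly equal. The ratio of PLK1 to BORA overlapped between the groups, at 4.86, 5.68 and 4.68 in WT and 6.46, 4.65 and 6.52 in MUT. These ratios were chosen after the values were seen, so no test is given.

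CHMP2A and CHMP2B are the human forms of the ESCRT-III subunit CHMP2. CHMP2B, which belongs to the wider ESCRT list, had a log2 fold change of 0.61 (adjusted p = 0.130 by edgeR's quasi-likelihood test), so the paralogues differed in direction. On the FPKM scale CHMP2A was 16.6, 16.6 and 17.0 times CHMP2B in WT and 10.1, 5.18 and 8.78 times in MUT. This ratio too was chosen after its values were seen. CHMP2A was lower and CHMP2B higher in every MUT library, so its separation of the groups follows from the 2 levels. Next to the threshold in the wider lists stood NEK6, a kinase of the spindle poles (log2 fold change -0.49, adjusted p = 0.0501), and CKAP2L, a relative of CKAP2 (0.85, adjusted p = 0.0663).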
